A study of Chlorocebus aethiops with 30 samples.

Results

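RNA levels in Vero cells were compared between 24 h and 8 h of regrowth after detachment with trypsin, over all 340 genes of the authors' deposited table of group means. Those 340 genes were selected by the authors, by a rule not given in the sources used here, and stand among 1371 genes that either deposited gene table holds. The level of each gene is 1 mean per group on an FPKM scale (fragments scaled by gene length and sequencing depth), and the difference is log2(24 h level + 1) minus log2(8 h level + 1). Both groups are wild-type Vero cells detached with trypsin at 37 °C, put back into culture for 8 or 24 h and then collected with an enzyme-free solution. The submitters' design gives 3 biological replicates for each group; whether they were separate cultures is not given. Also used here were the enzyme-free control, collected at once after detachment at 37 °C, the trypsin cells collected at 0 h, and the cells detached with TrypLE at 37 °C at 0, 8 and 24 h. All groups were grown in medium with 10% fetal bovine serum and passaged at 90% density. The cell density at 8 and 24 h is not given in the sources used here, so time since plating and density cannot be told apart.

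Vero is an established epithelial line from the kidney of the African green monkey and a common host for vaccine viruses. Trypsin is a serine protease that frees cells by cutting surface and matrix proteins, and TrypLE is a recombinant enzyme used in its place. Cells that have been replated have to attach, spread and re-enter the cell cycle. During this time matricellular proteins such as thrombospondin 1 are known to act on adhesion, cytokines of the interleukin 6 family are released, and immediate early genes respond to serum and growth factors without new protein synthesis.

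The means carry no error, so no difference between 24 h and 8 h could be set against the spread between replicates, and each is given as a description without a test. A scale for that spread exists only at 0 h, where single trypsin libraries are deposited for 206 of the 340 genes. Over these genes the SD of log2(normalised count + 1) between the 3 libraries had a median of 0.19, and the median was 0.0942 without replicate 1, 0.163 without replicate 2 and 0.248 without replicate 3. In the same 206 genes the median absolute difference between 24 h and 8 h was 0.26. Differences in a single gene near this median are close in size to the spread seen between libraries at 0 h. An SD at 0 h comes from normalised counts and from another time. Where it is given beside a difference, it is thus no measure of the error of that difference. The depth of the 8 and 24 h libraries is not given. At 0 h, 1 unit of the scale equalled 15.8 normalised counts per kilobase, and counts at 8 and 24 h were approximated from it. Of the 340 genes, 285 had a level of at least 5 in either group. The epithelial label could not be checked, since 0 of 16 epithelial markers and 0 members of the other marker lists (proximal tubule, distal tubule, fibroblast, endothelial, immune) were in the table under a symbol. In a bulk measurement, fewer cells of a type and less RNA per cell cannot be told apart.

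Between 8 h and 24 h of regrowth after trypsin, the named genes with the largest differences included THBS1, IL6, PHC2 and IL11 on the lower side and the gene for thioredoxin interacting protein, CEBPB, HES1 and GDF15 on the higher side. Most of the 340 genes lay near 0, with a median of 0.05 and a middle range, from the 25th to the 75th percentile, of -0.25 to 0.37. A log2 difference of at least 1 was reached by 24 genes that were higher at 24 h (7.06% of 340) and 14 that were lower (4.12%), together 11.2%. The limit applies to log2(level + 1), so a gene can differ by 2-fold or slightly more in level and stay inside it, as EGR1 did with a 24 h level of 2.00 times its 8 h level. When both groups were scaled to the same sum over the 340 genes, these counts were 14 higher and 18 lower, so the share of higher genes went from 63.2% to 43.8% of those past the limit. This scaling takes the median of all genes from 0.05 to -0.07. Without any scaling of this kind 191 genes were above 0 (56.2%) and 149 below (43.8%). Among genes with a name, the values nearest the limit from inside were 1.05 for LOC119619012 and 1.09 for LOC103232182 on the higher side, and -1.07 for IL11 and for LOC103241254 on the lower side. Just outside it were EGR1 and LOC119622745 at 0.97 each, and F3 at -0.90 and IFRD1 at -0.89.

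**Figure D1:**
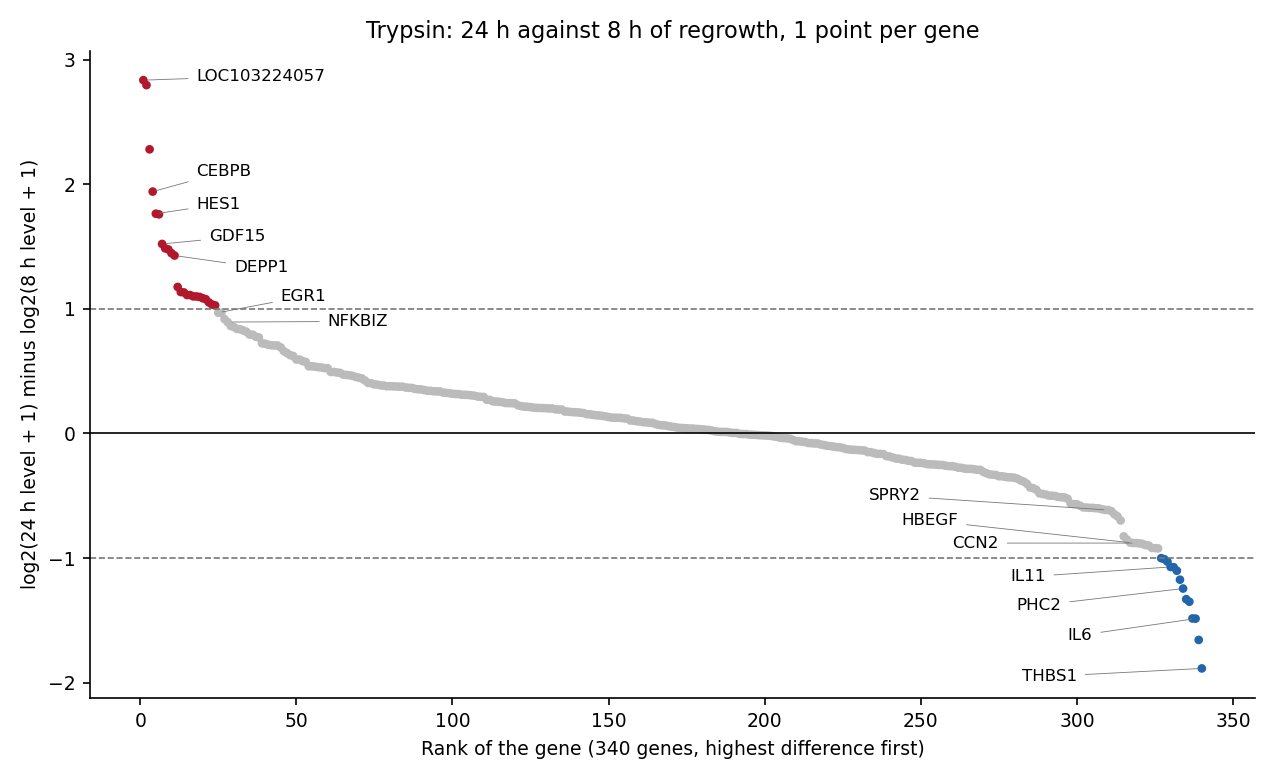
Difference between 24 h and 8 h after trypsin for each of the 340 genes, on the log2(level + 1) scale, ranked from the highest to the lowest; dashed lines mark differences of 1 and -1. The values run from 2.84 for LOC103224057 (thioredoxin interacting protein) to -1.89 for THBS1, with 24 genes in red at or above 1 and 14 in blue at or below -1.

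The deepest difference on the lower side was that of THBS1, which encodes thrombospondin 1, a matrix glycoprotein that binds integrins and activates latent TGF-beta. Its level was 33.2 in the control, 35.2 at 0 h, 45.8 at 8 h and 11.6 at 24 h, so that the 8 h level was 3.93 times the 24 h level. The 8 h mean was the highest of these and the 24 h mean the lowest. The log2 difference was -1.89. Its 0 h libraries held 2794, 3628 and 3215 normalised counts, with a log2 SD of 0.19. IL6, an inflammatory cytokine, had a level of 12.5 in the control, 47.7 at 0 h, 26.8 at 8 h and 8.92 at 24 h, a log2 difference of -1.49. It was highest directly after detachment and lower at each later time, ending below the control. IL11, a cytokine of the same family, had levels of 193, 243, 277 and 131 in the same order, with a difference of -1.07. It was close to its 0 h level at 8 h and below the control at 24 h.

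Of the 33 genes on a list of matricellular genes and targets of the mechanosensitive factors YAP and SRF, 6 were in the table. Of these 6, 1 was past the limit and lower, 0 were past it and higher, and the median was -0.64, against 4.12% lower, 7.06% higher and a median of 0.05 for all 340 genes. CCN2, a matricellular protein induced by YAP, went from 7.57 at 0 h to 15.0003 at 8 h and 7.70 at 24 h, beside 7.48 in the control (log2 difference -0.88). The 8 h mean stood apart from the other 3, which lay close together. F3, the tissue factor that starts coagulation, went from 5.10 at 8 h to 2.28 at 24 h, a difference of -0.90 that passed the limit at a pseudocount of 0.1 (-1.13). EDN1, which encodes the vasoactive peptide endothelin 1, went from 6.53 to 4.69. CCN1, a matricellular relative of CCN2, had 406 and 422 (0.06), and AMOTL2, an angiomotin that binds YAP, had 54.5 and 70.2. The list did not share 1 direction: 4 members were below 0 and 2 above it, or 5 and 1 when groups were scaled to the same sum.

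A second list holds growth factors, cytokines and feedback regulators of NF-kappaB, and 6 of its 40 genes were in the table. Past the limit were 2 lower members, IL6 and IL11, and 1 higher member, GDF15, where 4.12% of all 340 genes were lower and 7.06% higher. The median was -0.25 against 0.05 for all genes, and 3 members were above 0 and 3 below. HBEGF, a membrane-anchored ligand of the EGF receptor, had a level of 14.04 in the control, 12.8 at 0 h, 20.8 at 8 h and 10.9 at 24 h (log2 difference -0.88). As for CCN2, its 8 h mean was the highest of the trypsin course. NFKBIZ and NFKBIA, annotated as NF-kappaB inhibitors zeta and alpha and induced by NF-kappaB itself, lay on the other side. NFKBIZ had 28.0 in the control, 44.4 at 0 h, 7.63 at 8 h and 15.1 at 24 h (0.89), and NFKBIA had 46.3, 29.3, 15.3 and 20.2 (0.39). Both were above their 8 h level at 24 h and still below the control.

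**Figure D2:**
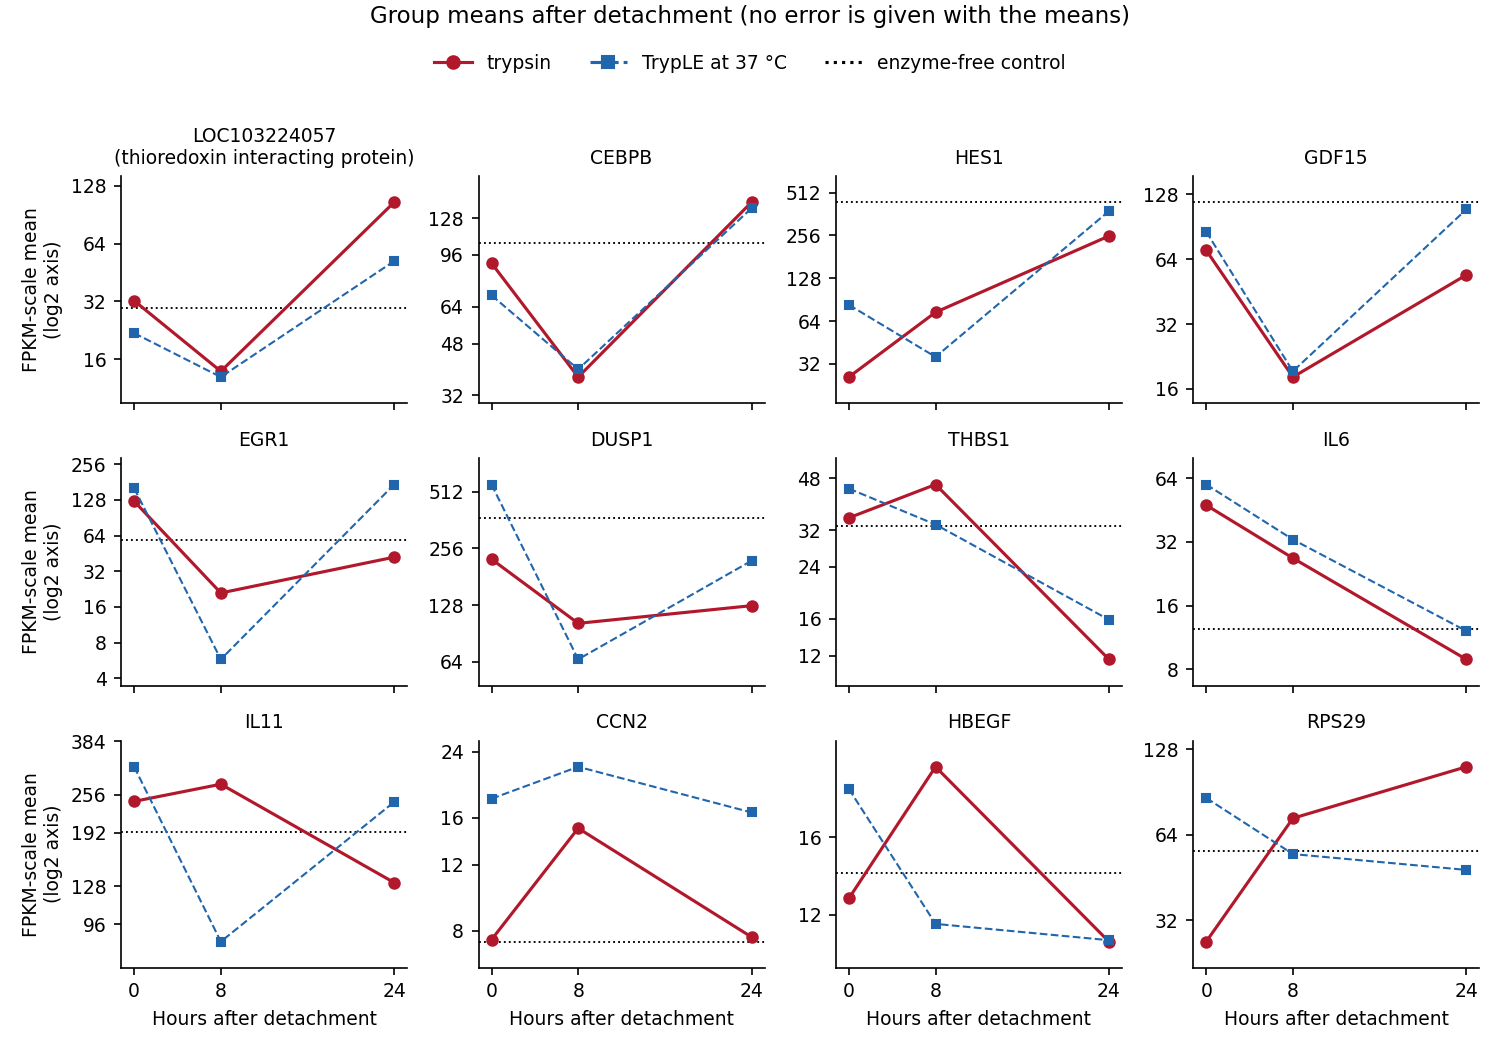
Group means on a log2 axis against hours after detachment, for trypsin (red circles) and TrypLE at 37 °C (blue squares), with the enzyme-free control as a dotted line; each point is the authors' mean of a group and has no error. After trypsin, THBS1, IL6, IL11, CCN2 and HBEGF were lower at 24 h than at 8 h, whereas LOC103224057, CEBPB, HES1 and GDF15 had their trough at 0 or 8 h and were higher at 24 h.

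On the higher side, the largest difference belonged to LOC103224057, described in the authors' annotation as thioredoxin interacting protein, an inhibitor of thioredoxin and of glucose uptake whose transcription follows the supply of sugar. Its level was 29.6 in the control, 32.2 at 0 h, 13.8 at 8 h and 105 at 24 h, 7.59 times the 8 h level (log2 difference 2.84). The 24 h mean was far above the other 3, and the 8 h mean was the lowest. CEBPB, a basic leucine zipper factor of inflammation and differentiation, had 106, 89.9, 36.9 and 145 in the same order (1.94). HES1, a repressor downstream of Notch, had 438 in the control, 25.9 at 0 h, 73.8 at 8 h and 253 at 24 h (1.76). It was the only one of these genes to be lower at 0 h than at 8 h, and at 24 h it was still below the control. GDF15, a stress-induced member of the TGF-beta family, had 118, 70.4, 18.2 and 54.1 (1.52), and DEPP1, a FOXO-induced regulator of autophagy, had 58.8, 53.2, 25.2 and 69.5 (1.43). CEBPB and DEPP1 ended above the control, and GDF15 ended below it. The log2 SDs between 0 h libraries were 0.08 for LOC103224057, 0.12 for CEBPB, 0.19 for HES1, 0.15 for GDF15 and 0.23 for DEPP1.

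Of the 43 genes on the list of immediate early genes, 13 were in the table. HES1 and GDF15 were past the limit and higher, 0 were past it and lower, and the median was 0.17, beside 7.06% higher, 4.12% lower and a median of 0.05 for all genes. GDF15 is also on the list of growth factors and cytokines, and PLK2 (0.13) is also on that of p53 targets and survival. Each of these genes is thus counted in both of its lists. Above 0 were 9 of the 13, beside 56.2% of all genes. EGR1, a zinc finger factor induced by ERK signalling, had 59.0 in the control, 124 at 0 h, 21.0 at 8 h and 42.0 at 24 h (0.97). ATF3, a stress-responsive bZIP factor, had 70.2, 20.8, 25.7 and 43.0 (0.72). Both stood between their 8 h level and the control at 24 h. IER3, a survival factor, went from 81.9 to 119 (0.54), while KLF6, a Krüppel-like factor, had 15.4 and 15.9 beside 32.7 in the control. On the lower side MAFF, a small MAF factor, went from 23.0 to 14.9 (-0.60). FOSB, a subunit of AP-1, went from 3.78 to 2.83 (-0.32) beside 14.5 in the control. CSRNP1, a nuclear protein induced by AXIN, had 16.9 and 14.4 (-0.21). EGR3, at 1.03 and 0.33, EGR2, at 0.29 and 0.45, and NR4A1, an orphan nuclear receptor at 1.35 and 1.78, had low levels. The approximate normalised counts at 8 h were 91.7 for EGR3 and 16.1 for EGR2.

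The 3 phosphatases in the table that switch off MAP kinases had differences of 0.29 to 0.34 and were below the control at 8 and 24 h. Of the 19 feedback inhibitors listed 4 were in the table. Past the limit were 0 of the 4, beside 7.06% higher and 4.12% lower for all genes. The median difference was 0.30, against 0.05 for all genes. DUSP1, a nuclear phosphatase, had 373 in the control, 225 at 0 h, 102 at 8 h and 127 at 24 h (0.31). DUSP6, a cytoplasmic phosphatase of ERK, had 38.5, 11.5, 8.89 and 11.1 (0.29), and DUSP5, a nuclear one, had 28.7, 15.2, 12.6 and 16.1 (0.34). All 3 phosphatases had their lowest mean at 8 h and stayed under the control at 24 h. SPRY2, an inhibitor of receptor tyrosine kinase signalling, went the other way, from 10.9 to 6.79 (-0.61), with 15.03 in the control.

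Genes of the integrated stress response and the unfolded protein response were represented by 4 of 37 listed genes. Of these only CEBPB was past the limit, beside 7.06% higher and 4.12% lower for all genes. The list median was 0.22, against 0.05 for all genes. PPP1R15A, the subunit that directs phosphatase to eIF2alpha, had 35.6 at 8 h and 43.1 at 24 h beside 65.7 in the control. DDIT4, an inhibitor of mTORC1, had 13.3 and 14.998 beside 24.9. DDIT3, the CHOP factor of prolonged stress, had 66.4 in the control, 14.8 at 0 h, 21.95 at 8 h and 18.3 at 24 h (-0.25). All 3 were thus below the control at both times. Of 27 genes for p53 targets and survival 3 were in the table and 0 were past the limit, beside 11.2% of all genes. GADD45B, a growth arrest gene, went from 33.1 to 54.8 (0.71). MCL1, an anti-apoptotic protein, went from 60.3 to 45.9 (-0.39), and PLK2, a p53-induced kinase, had 143 and 157.

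Of 78 genes of G2 and mitosis 6 were in the table, with 0 past the limit, 5 of the 6 below 0 and a median of -0.16, beside 43.8% below 0 and a median of 0.05 for all genes. PLK1, the kinase that drives entry into and exit from mitosis, had 61.7 in the control, 60.2 at 0 h, 42.6 at 8 h and 27.8 at 24 h, a difference of -0.60 beside an SD of 0.06 between its 0 h libraries. Its mean was lower at each later time. KNL1, a kinetochore scaffold, went from 4.61 to 2.97 (-0.50). CENPF, of the outer kinetochore, had 21.3 and 18.3, and MKI67, the proliferation antigen Ki-67, had 21.1 and 19.6 (-0.21 and -0.10). NCAPD2, a condensin subunit, was the 1 member above 0, with 17.5 and 24.3 (0.45) beside 28.1 in the control. None of 68 genes of DNA replication was in the table under its symbol.

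Cytosolic ribosomal protein genes, the building blocks of the translating ribosome, were slightly higher at 24 h. Of the 29 present, 0 were past the limit, 22 were above 0 and 7 below, beside 56.2% of all genes above 0, and the median was 0.24 against 0.05 for all genes. The median stayed above 0 when differences were centred on the median of all genes (0.19, with 19 above 0) and when the groups were scaled to the same sum (0.11, with 19 above 0). RPS29 had 56.2 in the control, 26.9 at 0 h, 73.2 at 8 h and 111 at 24 h (0.59), the largest difference of the list. RPL36, RPL37 and RPL37A had 389 and 515, 340 and 447, and 491 and 638 at 8 and 24 h. In all 4, the 0 h mean was the lowest, the 8 h mean lay above the control and the 24 h mean above that of 8 h. The most abundant members differed less than these 4, with 1530 and 1909 for RPL28, 1360 and 1702 for RPS18, and 1490 and 1463 for RPL35. RPL28 and RPS18, at 0.32 each, still lay above the list median, and RPL35 lay below it (-0.03). Equally abundant outside the list were LOC119619963, with 1818 and 2110, and the calcium-binding protein S100A6, with 1547 and 1508. LOC119619963 is annotated as a transcribed pseudogene similar to ATP synthase subunit a.

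Oxidative phosphorylation genes, which encode the respiratory chain and ATP synthase, had no common direction. Of 16 present under a symbol, 0 were past the limit, beside 7.06% higher and 4.12% lower for all genes. Their median was 0.05, beside 0.05 for all genes. It became -0.00130 with centring on the median of all genes and -0.08 with scaling to the same sum. These 16 genes thus had no direction that held under each scaling. NDUFA13 of complex I had 77.0 and 107 at 8 and 24 h (0.47). UQCRH of complex III had 31.8 and 43.1 (0.43), and the ATP synthase subunits ATP5MJ and ATP5MK went apart, with 176 and 217 for the former (0.30) and 96.9 and 81.2 for the latter (-0.25). A further 6 genes under LOC names, grouped after the values were seen, are described as subunits of the same complexes or as similar to them. Among them, LOC119619963 is annotated as a transcribed pseudogene. Of the 6, 5 were above 0, 1 was past the limit and higher, and their median was 0.29. For all genes 56.2% were above 0, 7.06% were past the limit and higher, and the median was 0.05. Of the spliceosomal Sm proteins, SNRPD2 had 297 and 254 (-0.22), SNRPF 62.4 and 56.7 (-0.14), SNRPD3 26.1 and 25.9 (-0.01) and SNRPE 35.1 and 38.3 (0.12, or -0.01 when groups were scaled to the same sum). Of 3 zinc finger genes, ZNF217 had 7.67 and 10.3 (0.38), ZBTB6 had 51.0 and 44.2 (-0.20), and 0 were past the limit, beside 11.2% of all genes.

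**Figure D3:**
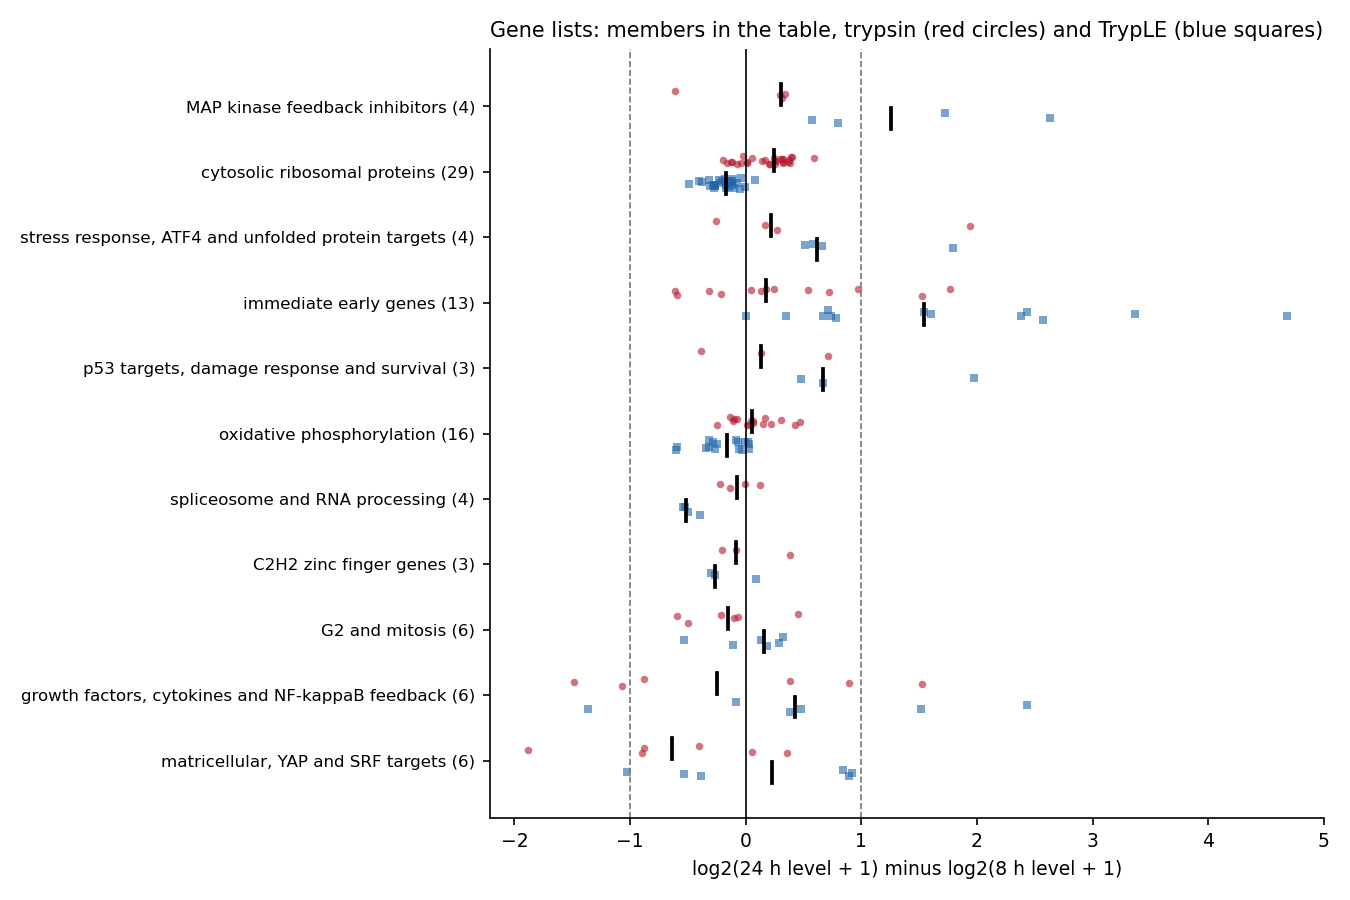
Log2 differences between 24 h and 8 h for the members of each gene list with at least 3 members in the table, whose number stands in brackets; red circles are trypsin, blue squares TrypLE at 37 °C, black bars the median of each list, and dashed lines mark 1 and -1. The trypsin medians run from -0.64 for matricellular genes to 0.30 for MAP kinase feedback inhibitors, and the immediate early list has a median of 0.17 after trypsin and 1.54 after TrypLE.

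Ribosomal protein genes and transcribed pseudogenes that carry only a LOC name were also in the table. Of 17 LOC genes that the authors' annotation describes as cytosolic ribosomal proteins, a group assembled after the values were seen, 4 were past the limit and higher, 0 were past it and lower, 13 were above 0 and the median was 0.36, beside 7.06% higher, 4.12% lower, 56.2% above 0 and a median of 0.05 for all genes. Of the 4, LOC119619012 (0.92) and LOC103232182 (0.96) were inside the limit when groups were scaled to the same sum; the former was also inside it with centring (0.999) and the latter at a pseudocount of 5 (0.96). The differences of the 17 ran from -0.35 to 1.76, and the 4 below 0 included LOC103241722, also described as S26, with 182 at 8 h and 142 at 24 h (-0.35). LOC103234934, described as similar to S26, had 11.8 in the control, 4.24 at 0 h, 8.19 at 8 h and 30.1 at 24 h (1.76), while RPS26 itself had 444 at 8 h and 499 at 24 h (0.17). LOC103230449, similar to L35, had 34.8, 12.6, 37.6 and 107 (1.49), against -0.03 for RPL35. LOC119619012, described as S27, had 169 and 351 at 8 and 24 h (1.05), LOC103234232, similar to S15a, had 15.02 and 28.1 (0.86), and LOC103232182, similar to the acidic protein P2, had 19.6 and 42.7 (1.09), against 0.01 for RPLP2. LOC119619672, described as cytochrome c oxidase subunit 7C, had 37.7 and 104 (1.45), and LOC119622745, described as thymosin beta-10, had 110 and 217 (0.97), against 0.05 for TMSB10. These genes may share reads with near-identical copies, and how the authors' counting divided such reads is not given, so their values are uncertain. Their 0 h libraries varied more than the median of 0.19, with log2 SDs of 0.43 (LOC103234934), 0.30 (LOC103230449), 0.54 (LOC119619012) and 0.46 (LOC119619672).

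These copies are short, so the differences were also set against gene length. Among the 206 genes with a length in the authors' table, the median difference was 0.16 for 102 genes under 1000 bases, 0.04 for 80 genes from 1000 to under 5000 bases and 0.14 for 24 genes of 5000 bases or more. Spearman's rho of difference against length was -0.12 across these genes, which share the same libraries and are not independent. After TrypLE the same classes had medians of -0.18, 0.08 and 0.33 and rho was 0.43. The part of length in the differences was not tested.

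Further named genes on the lower side came from other roles. PHC2, a subunit of the Polycomb repressive complex PRC1, had 36.9 in the control, 27.7 at 0 h, 39.6 at 8 h and 16.1 at 24 h (-1.24), with a log2 SD of 0.01 between its 0 h libraries. The 24 h mean was the lowest of the course. IFRD1, a transcriptional co-regulator of differentiation, had 10.7, 6.45, 12.3 and 6.19 (-0.89). HPS6, a subunit of a complex that builds lysosome-related organelles, had 9.23, 14.2, 15.1 and 8.92 (-0.70), so that its 24 h mean was near the control. CUNH16orf91, an uncharacterised homolog of a human open reading frame, had 55.4 at 8 h and 36.2 at 24 h (-0.60). The uncharacterised LOC103247522 and LOC103241254 had 7.40 and 2.34 (-1.33) and 49.8 and 23.1 (-1.07), and at a pseudocount of 5 both left the limit (-0.76 and -0.96).

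Set against the enzyme-free control, most of the genes past the limit crossed the control level between 8 and 24 h. Of the 24 genes that were higher at 24 h, 17 had been below the control at 8 h and were above it at 24 h. Of the 14 that were lower, 13 had been above it and were below it at 24 h. These genes were picked by the same means, so these counts only describe where they lie. Of all 340 genes 143 were nearer to the control at 24 h than at 8 h (42.1%), and the median distance from the control was 0.28 at 8 h and 0.36 at 24 h on the log2(level + 1) scale. Among the 35 genes that were at least 1 from the control at 8 h on this scale, 30 were nearer at 24 h, and 13 of the 35 were still at least 1 away. Under the control by at least 1 at 8 h were 28 genes, among them HES1, GDF15, DUSP1, DUSP5, DUSP6, EGR1, ATF3, NFKBIZ, NFKBIA, KLF6, DDIT3 and FOSB, and 10 of the 28 remained so at 24 h. Of the 28, 5 were not nearer to the control at 24 h. LOC103224057 was further above it than it had been below, and DDIT3, FOSB and 2 unnamed genes were lower still. The control mean enters both distances, and the genes were chosen by the 8 h distance, so the share that was nearer is given with no reading.

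**Figure D4:**
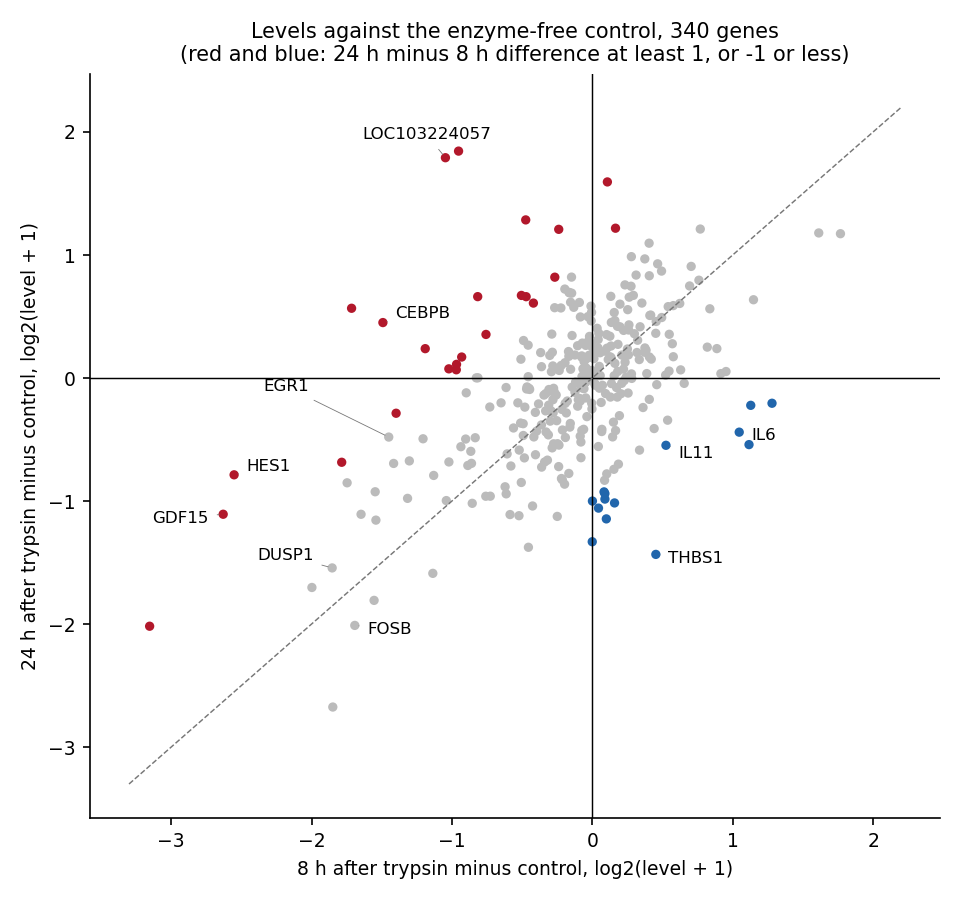
Level relative to the enzyme-free control at 8 h (horizontal axis) and 24 h (vertical axis) after trypsin, as differences of log2(level + 1); each point is 1 of 340 genes, the dashed line marks equal levels at 8 and 24 h, and both axes share the control mean. Genes with a difference of at least 1 between 24 h and 8 h (red) lie mostly left of 0 and above it, and those at -1 or less (blue) mostly right of 0 and below it.

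The same comparison after TrypLE at 37 °C rests on other libraries and gave partly the same picture. There 41 genes were past the limit and higher at 24 h (12.1% of 340) and 19 lower (5.59%), together 17.6%, with 144 above 0 (42.4%) and 196 below (57.6%). Higher after both enzymes were 15 genes, which are 62.5% of the 24 for trypsin and 36.6% of the 41 for TrypLE. Lower after both were 6, or 42.9% of the 14 and 31.6% of the 19. Across the 340 genes the 2 sets of differences had a Pearson r of 0.59 and a Spearman rho of 0.55 and shared their sign in 63.8%, as a description over genes that share libraries within each enzyme. CEBPB had similar values after both, with 39.2 at 8 h and 138 at 24 h after TrypLE (1.79 against 1.94 for trypsin), as was IL6 with 32.8 and 12.1 (-1.36 against -1.49). THBS1 had 33.5 and 15.9 after TrypLE (-1.03 against -1.89).

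The immediate early genes and MAP kinase phosphatases lay apart between the enzymes. After TrypLE the 13 immediate early genes had a median of 1.54, against 0.17 after trypsin. Above 0 were 13 of 13, against 9 of 13 after trypsin, and 7 were past the limit and higher after TrypLE. The 4 feedback inhibitors had a median of 1.26 against 0.30, with 2 past the limit and higher after TrypLE. For all genes after TrypLE the median was -0.07, with 42.4% above 0 and 12.1% past the limit and higher. EGR1 had 5.78 at 8 h and 172 at 24 h after TrypLE (4.68), against 21.0 and 42.0 after trypsin (0.97), so that it was lower at 8 h and higher at 24 h after TrypLE. DUSP5 had 4.98 and 36.0 after TrypLE (2.63 against 0.34), DUSP1 66.0 and 220 (1.72 against 0.31), ATF3 11.9 and 75.9 (2.57 against 0.72) and HES1 35.9 and 379 (3.37 against 1.76). IL11 was the single gene past the limit in opposite directions, with 84.0 and 242 after TrypLE (1.52) against 277 and 131 after trypsin (-1.07). Ribosomal protein genes also lay on opposite sides. Their median was -0.18 with 1 of 29 above 0 after TrypLE, against 0.24 and 22 of 29 after trypsin. For all genes 42.4% were above 0 after TrypLE and 56.2% after trypsin. Other short genes were also on opposite sides, in a group formed after the values were seen. In 43 genes under 1000 bases, neither ribosomal nor of oxidative phosphorylation, the median was -0.28 after TrypLE and 0.10 after trypsin. Of these 43, 10 and 26 were above 0. The values are on the authors' scaling, and the TrypLE list medians were not rescaled. The LOC copies LOC103230449, LOC103234934, LOC119619672 and LOC103232182 were at -0.42, -0.06, -0.01 and -0.04 after TrypLE. GAS1, a growth arrest gene, had 39.0 and 14.9 after TrypLE (-1.33) and 17.9 and 16.1 after trypsin (-0.15). The means carry no error, so no difference between the enzymes was tested.

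**Figure D5:**
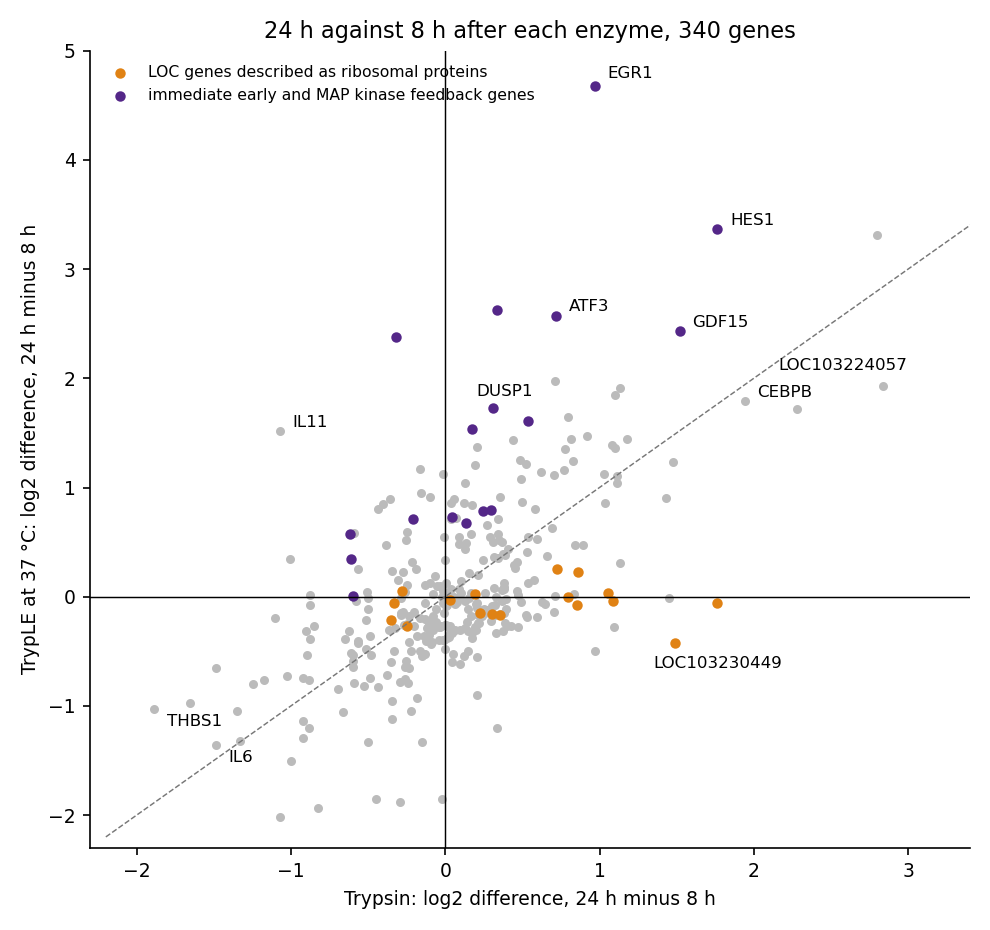
Log2 difference between 24 h and 8 h after trypsin (horizontal axis) and after TrypLE at 37 °C (vertical axis) for 340 genes, with the dashed line marking equal values. Immediate early and MAP kinase feedback genes (purple) lie above the line, up to EGR1 at 0.97 and 4.68, and LOC copies of ribosomal protein genes (orange) lie along 0 on the vertical axis with trypsin values up to 1.76.

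Of the 340 genes, 141 have no name in the files used here, and they held 14 of the 24 genes past the limit on the higher side and 8 of the 14 on the lower side. Past the limit were 15.6% of the unnamed and 8.04% of the named genes. Gene 103240638 had 79.2 in the control, 103 at 0 h, 40.4 at 8 h and 287 at 24 h (2.80), and gene 103236757 had 61.7, 93.3, 18.1 and 91.9 (2.28). On the lower side gene 103248693 was among the most abundant of the table, with 547 in the control, 741 at 0 h, 1188 at 8 h and 376 at 24 h (-1.66), and gene 103214241 had 23.6, 33.6, 58.8 and 20.4 (-1.49). These 4 had a trough at 8 h for the first 2 and a peak at 8 h for the others. After TrypLE 11 of the 14 unnamed higher genes were also past the limit and higher, as were 4 of the 10 named ones. For all 340 genes this share was 12.1% after TrypLE. Of the 10 named genes, 6 carry only a LOC name, most of them short copies whose values are uncertain.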

How the data were processed

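RNA sequencing of Vero cells covered 30 samples in 10 groups of 3. The submitters' processing notes name HISAT2 2.0.5, an aligner, and featureCounts 1.5.0-p3, a read counter. Neither genome build nor annotation is given there. The deposited union table holds 1 FPKM-scale mean per group for 7 groups. Its unit is inferred: over 206 genes shared with the deposited 0 h table, trypsin 0 h values equal the normalised count per kilobase divided by 15.8 (coefficient of variation 0.0143%). The 0 h table holds a signal per library, read counts that the authors divided by a size factor, for 1237 genes. Names, lengths and descriptions come from it and cover 199 of the 340 genes. The 9 samples treated with cold TrypLE were not analysed here.

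Differences are log2(level + 1) of 24 h minus 8 h, which understates changes of low genes, and a log2 difference of 1 served as a limit of size. No test was possible on group means. Alternatives were other pseudocounts (0.1, 5), a minimum level of 5, centring, scaling to the same sum, and other limits; fits to single libraries or with a replicate block could not be run. The 340 genes, the 21 gene lists and the limits were chosen with earlier results of these data known. Named genes have a name and a level of at least 5 in either group, and are the 14 largest differences in each direction, the 4 largest of each list with at least 3 members, those nearest the limit, those with the largest gap to TrypLE and the most abundant. LOC names counted as names. Others (IER3, KLF6, CCN1, AMOTL2, FOSB, EGR2, EGR3, NR4A1, CSRNP1, KNL1 and NFKBIA as list members, RPS26, RPLP2 and TMSB10 as counterparts of LOC copies, and unnamed genes) were added after their values were seen. Lists with no member under a symbol were DNA replication, cholesterol synthesis, extracellular matrix, histones, noncoding hosts and interferon-stimulated genes. Those with 1 or 2 were the clock (BHLHE40, -0.17), glycolysis (PFKFB3, -0.26), zinc response (SLC30A1, 0.16), and mitochondrial import (TOMM7, -0.02; TIMM8B, -0.09). Python 3.11.15, pandas 2.3.3, numpy 2.4.6, scipy 1.17.1 and matplotlib 3.10.9 were used. Known log2 differences built into the 8 h means were recovered, which checks the arithmetic of the difference and nothing else. No sequences were given for these genes.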

Additional observations from a re-analysis of the deposited data

How the results depend on the processing

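No paired analysis was possible because the 8 and 24 h values are group means without single libraries. For the same reason no replicate could be left out, and the depth behind each mean is unknown. Counts of genes past a log2(level + 1) difference of 1 depended on the pseudocount and the limit. With a pseudocount of 5 they were 19 for trypsin (13 higher, 6 lower) and 34 for TrypLE (25 higher, 9 lower), since low genes are drawn towards 0 by construction. With the limit at the log2 of 1.5 they were 90 (51 and 39) and 112 (66 and 46). With it at the log2 of 4 they were 3 (3 and 0) and 8 (7 and 1). Scaling to the same sum over the table left 14 higher genes for trypsin, because the sum over the 340 genes was larger at 24 h (41211) than at 8 h (37610). The 29 ribosomal protein genes made up 18241 of the sum at 24 h and 16119 at 8 h. This scaling is thus set in large part by those genes and is no measure of sequencing depth. The median of the immediate early list was 0.38 with a pseudocount of 0.1 and 0.54 with only genes at a level of at least 5, which leaves 9 of 13 members. That of the matricellular list was -0.36 with a pseudocount of 5. The median log2 SD between 0 h libraries ran from 0.0942 to 0.248 when 1 library was left out. Of 315 values of 63 named genes under 5 alternatives, 264 moved by less than the 0 h spread and 51 moved by more. Among them 1 changed sign (SNRPE) and 7 crossed the limit of 1. The alternative with a minimum level of 5 could not move any of the 63 genes, which were all named for having that level. Its 63 unchanged values are counted among the 264.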

Other observations

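Metallothionein genes, which bind zinc and other metals, appear in the table only under LOC names, and were looked up after the values were seen. After trypsin they divided: LOC103233030 (metallothionein-1E-like) had 163 at 8 h and 230 at 24 h, and LOC103233031 (metallothionein-1E) had 148 and 194, whereas LOC103233029 (metallothionein-2) had 289 and 228, and LOC103233043 (metallothionein-1) had 93.7 and 65.9. Log2 differences were 0.49, 0.38, -0.34 and -0.50. After TrypLE all 4 were below 0, with differences of -0.05, -0.24, -0.96 and -1.33, beside 57.6% of all genes below 0. These copies are alike in sequence within the family, and reads may be shared among them.

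The 11 genes of 10000 bases or more, a group also formed after the values were seen, did not share a direction after trypsin. Of these, 6 were above 0 and 5 below, with a median of 0.17 and 0 past the limit. For all genes after trypsin, 56.2% were above 0, 11.2% were past the limit, and the median was 0.05. SYNE2, a giant nesprin that links the nucleus to the cytoskeleton, had 15.6 at 8 h and 27.9 at 24 h (0.79), and DST, the plakin dystonin, had 6.0015 and 10.9 (0.77). GOLGB1 and AKAP9, which encode large proteins of the Golgi, had differences of 0.71 and 0.58. AHNAK, a giant protein beneath the plasma membrane, had 30.4 and 21.2 (-0.50), and the atypical cadherin FAT1 had 22.3 and 18.2 (-0.28). After TrypLE 9 of the 11 were above 0 and 4 were past the limit and higher, with a median of 0.80. For all genes after TrypLE, 42.4% were above 0, 12.1% were past the limit and higher, and the median was -0.07.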
